A study of Mus musculus with 8 samples.

Results

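Krüppel-like factors (KLFs) are DNA-binding transcription factors, and 8 of them that blood leukocytes express are described here across 8 RNA-seq libraries of mouse blood: Klf2, Klf3, Klf4, Klf6, Klf7, Klf10, Klf12 and Klf13. The members were chosen by gene symbol in a count table of 56748 genes, and all 8 were among the 14723 genes with enough reads to be tested. Peripheral blood mononuclear cells (PBMCs, the lymphocytes and monocytes that float on a density gradient) came from male wild-type C57BL/6J mice on a basal diet, 8 weeks old when gavage began. The 3 fucoidan libraries were from mice gavaged daily for 1 month with fucoidan, a sulphated polysaccharide from the brown alga Undaria pinnatifida, at 200 mg/kg per day, and the 5 saline libraries were from mice gavaged with saline. Blood was drawn by cardiac puncture at the end of that month. The labels call the libraries biological replicates and do not say whether each holds 1 animal, so the p-values measure the spread between these libraries. The treatment text of the fucoidan samples mentions saline only, whereas their titles and characteristics name fucoidan, and the titles were followed.

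KLF proteins bind GC-rich and CACCC-containing DNA through a run of zinc fingers at the C-terminal end, and their N-terminal parts recruit either coactivators or corepressors. In lymphocytes KLF2 is known for keeping naive T cells at rest and for driving the receptors that let them circulate between blood and lymph nodes, while KLF4 and KLF6 are better known from monocytes and macrophages. KLF3 and KLF12 repress through the corepressor CtBP, and KLF10 and KLF13 through the SIN3 complex.

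No member of the family passed the test between fucoidan and saline. Klf2, the most abundant member, was 0.642-fold the saline level in fucoidan (log2 fold change -0.64, SE 0.309, adjusted p = 0.204), and Klf6 was 0.750-fold (log2 fold change -0.41, SE 0.204, adjusted p = 0.212). Klf2 passed in 1 of 17 alternative analyses, when saline replicate 2, the saline library with the lowest Klf2, was left out. In that library all 8 members lay outside the range of the other 4 saline libraries, as did the 24.4% of all genes tested for which it was the highest saline library and the 24.7% for which it was the lowest. Around KLF2, 2 of 6 tested genes known to need it (Ccr7 and S1pr1) fell in fucoidan, where 4.65% of all genes tested were called lower, and the count was 1 when any of 5 libraries was left out. Of 10 B cell markers 9 fell, and 4 without fucoidan replicate 3.

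The promoters of Klf2 and Klf4 are shown because the same upstream route, the kinase ERK5 and its MEF2 factors, is known to induce both genes in endothelial cells, and because Mef2c was among the genes that fell. Each window is the 250 bases before the RefSeq gene start, in the gene's direction, at chr8:72318812-72319061 (+ strand) for Klf2 and chr4:55532476-55532725 (- strand) for Klf4 on GRCm38.p6, a different build from the count table. Capitals mark CACCC, the GC box GGGCGG and the MEF2 consensus, each on either strand.
Klf2: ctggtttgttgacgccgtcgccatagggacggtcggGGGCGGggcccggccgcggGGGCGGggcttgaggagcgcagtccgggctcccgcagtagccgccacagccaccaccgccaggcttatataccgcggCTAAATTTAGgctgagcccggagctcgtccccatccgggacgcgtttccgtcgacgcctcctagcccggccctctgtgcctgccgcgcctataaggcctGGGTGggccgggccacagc
Klf4: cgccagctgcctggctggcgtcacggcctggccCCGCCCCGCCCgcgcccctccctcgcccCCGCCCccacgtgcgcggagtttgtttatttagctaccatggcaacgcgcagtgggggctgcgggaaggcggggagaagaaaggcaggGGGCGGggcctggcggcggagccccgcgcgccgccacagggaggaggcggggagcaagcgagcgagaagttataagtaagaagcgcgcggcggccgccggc
The Klf2 window held 1 CACCC match, 2 GC boxes and 1 match to the MEF2 consensus, which lay 118 to 109 bases before the start. The Klf4 window held 4 GC boxes, a pair of them overlapping, and no CACCC or MEF2 match. RefSeq windows were matched for 7 of the 8 members. Of these, Klf3 held the most matches, with 5 CACCC and 6 GC boxes, and Klf6 and Klf12 the fewest, with 1 GC box for Klf6 and 1 CACCC for Klf12. Among all 32851 windows of the same length in the RefSeq table, 52.0% held CACCC, 32.7% the GC box and 2.92% the MEF2 consensus. The FOXO core GTAAACA and the CArG box, found in 3.17% and 1.47% of all windows, matched none of the 7. A match describes these letters and is not a binding site.

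Total counts ran from 13061703 to 16334932 per library, and 2025 genes passed an adjusted p of 0.05 in edgeR's quasi-likelihood test, 13.8% of those tested, 1341 (9.11%) higher and 684 (4.65%) lower in fucoidan. With upper-quartile scaling the split was 1241 higher and 989 lower. The summed level of 19 measured pan-leukocyte genes was 13251 to 15023 CPM (counts scaled to library size) in saline and 13675 to 14401 in fucoidan. Red cell RNA differed: haemoglobin genes took 5.40% ± 1.88 of counts in saline (SD, n = 5) and 17.3% ± 5.93 in fucoidan (SD, n = 3; exact two-sided permutation p = 0.0357, the smallest that the 56 arrangements of the libraries allow). All 13 measured erythroid markers and all 9 measured platelet markers rose, with summed levels of 32285 to 89294 CPM in saline against 156605 to 374278 in fucoidan for the first, and 1987 to 4247 against 5973 to 12861 for the second. All 10 natural killer cell markers rose (296 to 441 against 727 to 997 CPM summed), 3 of 10 T cell markers rose (665 to 806 against 904 to 1244), and 9 of 10 B cell markers fell (4407 to 5630 against 2576 to 3713). The T cell count ran from 1 to 7 over the alternatives, being 1 with the replicate block, with upper-quartile scaling, by limma-voom and when fucoidan replicate 1 or 3, or saline replicate 3 or 4, was left out. The B cell count was 4 without fucoidan replicate 3, and 5 without saline replicate 3 or 4. In bulk RNA, fewer cells of a type and less RNA per cell cannot be told apart. The part of these shifts in the values of the members was not tested.

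Klf2 was the dominant KLF transcript. Per length, taken as scaled CPM per kilobase of the gene length in the count table, its mean level over the 8 libraries was 375, which ranked 101 among the genes tested. Klf6 followed at 86.8 (rank 472), then Klf13 at 44.7, Klf3 at 30.2, Klf4 at 27.5, Klf10 at 9.66, Klf7 at 5.06 and Klf12 at 0.544, a level above only 13.3% of genes tested. The ranges of most neighbours in that order did not overlap. The exceptions were Klf3 and Klf4, where Klf3 was the higher in 6 of 8 libraries, and Klf10 and Klf7, where Klf10 was the higher in 7 of 8. As read counts, Klf2 had 4300 to 16690 per library and Klf12 only 24 to 95.

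**Figure D1:**
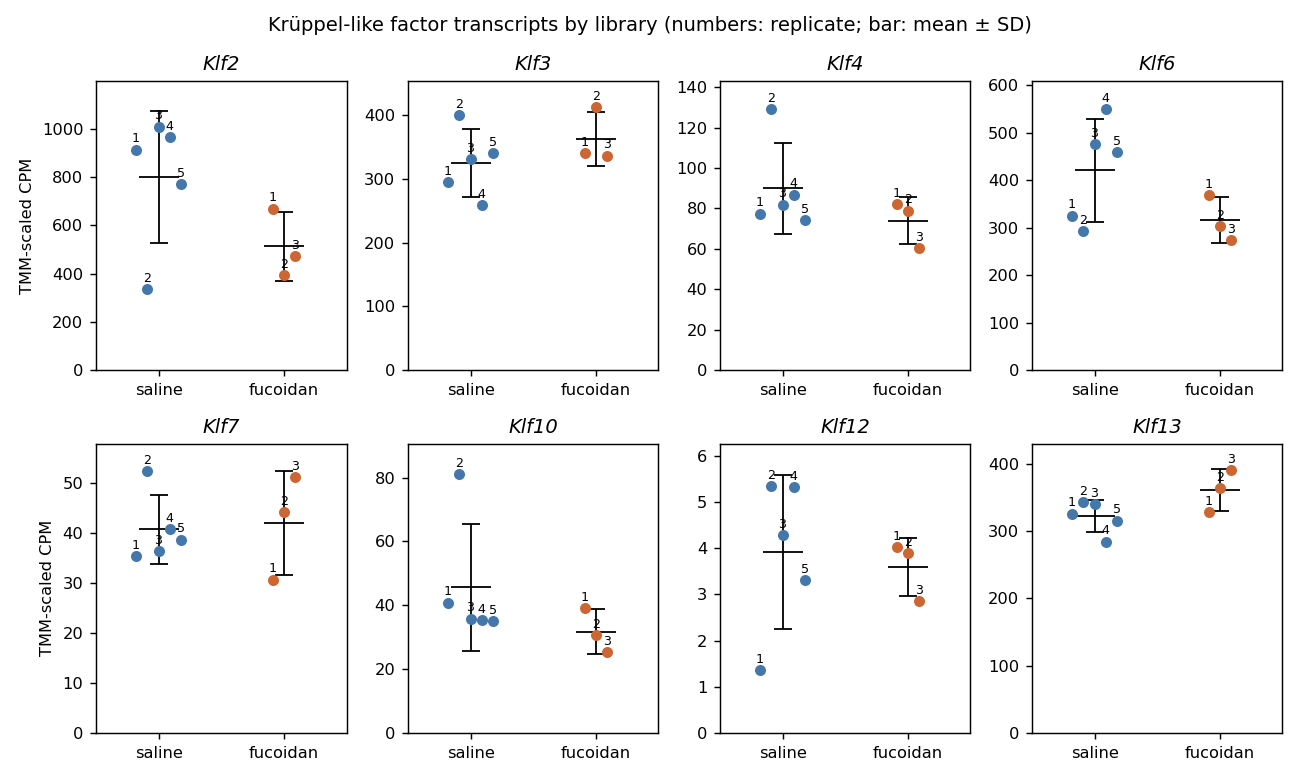
Scaled CPM of each member in the 5 saline (blue) and 3 fucoidan (orange) libraries, with the replicate number at each point and the group mean ± SD as bars; each axis starts at 0. Saline replicate 2 is the lowest saline library for Klf2 (337 CPM) and Klf6 (293 CPM) and the highest for Klf4 (129 CPM) and Klf10 (81.1 CPM).

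Klf2 encodes the quiescence and trafficking factor of lymphocytes (ENSMUSG00000055148, chromosome 8, 73072877 to 73075500, + strand, GRCm39 as in the count table, like all gene positions here). Its level was 915, 337, 1009.6, 965 and 770.4 CPM in saline replicates 1 to 5, and 669, 396 and 473 CPM in fucoidan replicates 1 to 3. Of the saline libraries 4 lay above every fucoidan library, and saline replicate 2 lay below all 3, so the groups overlapped. The means were 799 ± 273 CPM in saline (SD, n = 5) and 513 ± 141 CPM in fucoidan (SD, n = 3), and the log2 fold change of -0.64 had a 95% interval of -1.32 to 0.04. Without saline replicate 2 it was -0.84 (SE 0.183, interval -1.24 to -0.43, 0.561-fold, adjusted p = 0.0166), and Klf2 was then the only member whose groups did not overlap. That separation follows from leaving out the 1 saline library that lay below fucoidan, so it is no further test. In that smaller comparison 13.5% of the genes tested passed, 4.57% of the genes tested were called lower, and 14.2% of genes lay lower without overlap. Leaving out each of the other libraries in turn gave log2 fold changes from -0.88 to -0.48, none of which passed.

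Klf6, an early-response factor that supports inflammatory gene expression in macrophages (ENSMUSG00000000078, chromosome 13, 5911481 to 5920393, + strand), was also lower on average in fucoidan, without passing the test. Its level was 325, 293, 476, 549 and 459.6 CPM in saline and 369, 303 and 274 CPM in fucoidan. The 3 highest values were saline, and the remaining libraries of the 2 groups were mixed. The means were 421 ± 108 CPM (SD, n = 5) and 315 ± 48.6 CPM (SD, n = 3), with a 95% interval of -0.86 to 0.03 around the log2 fold change of -0.41. Without saline replicate 2 it was -0.52 (adjusted p = 0.0828). With the replicate numbers as a block the log2 fold change was -0.19 (adjusted p = 0.607). Klf6 was higher in fucoidan in 2 of the 3 same-numbered pairs (325 and 369, 293 and 303) and lower in the other (476 and 274). KLF6 and KLF4 are known from monocytes and macrophages, and the markers of these cells moved in different ways. Of 7 classical monocyte markers 1 fell and none rose, with summed levels of 3010 to 6140 CPM in saline and 3128 to 3667 CPM in fucoidan. Of 7 nonclassical monocyte markers 4 rose, with summed levels of 1555 to 1958 CPM in saline and 2162 to 2353 CPM in fucoidan. Log2 fold changes were positive for 5 of the 7 and negative for Cx3cr1 (-0.31) and Nr4a1 (-0.52), which were not called. Itgal, 1 of those that rose, is also among the pan-leukocyte genes. Of 8 tissue macrophage markers 6 were tested and 1 fell (4 with the block or by DESeq2), with a median log2 fold change of -1.78 and summed levels of 58.1 to 99.9 CPM in saline and 45.6 to 63.5 CPM in fucoidan. The part of these cells in the values of Klf4 and Klf6 was not tested.

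Klf4, which promotes monocyte differentiation and restrains proliferation of lymphocytes (ENSMUSG00000003032, chromosome 4, 55527143 to 55532466, - strand), stood apart in 1 saline library. It was 77.4, 129, 81.9, 86.9 and 74.4 CPM in saline, and 82.0, 78.9 and 60.5 CPM in fucoidan. Without the 129 CPM of saline replicate 2, the saline libraries differed from each other by less than the fucoidan libraries did. The log2 fold change was -0.28 (SE 0.183, 95% interval -0.68 to 0.12, adjusted p = 0.348), and -0.12 without saline replicate 2.

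Klf10, a TGF-beta-inducible repressor (ENSMUSG00000037465, chromosome 15, 38291707 to 38300950, - strand), had the largest relative spread within saline, a coefficient of variation of 43.8%. Its level was 40.8, 81.1, 35.8, 35.4 and 34.9 CPM in saline and 39.2, 30.5 and 25.4 CPM in fucoidan. Saline replicate 2 was 2.21 times the mean of the other 4 saline libraries, which lay within 6 CPM of each other. The log2 fold change of -0.52 (SE 0.282, 95% interval -1.14 to 0.10, adjusted p = 0.260) was -0.21 (adjusted p = 0.373) without that library, a change of more than 1.5 times in a value that passed in neither.

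Klf13, an activator of the chemokine gene Ccl5 in human T cells (ENSMUSG00000052040, chromosome 7, 63536099 to 63588663, - strand), was the steadiest member. It was 326, 344, 341, 285 and 316 CPM in saline and 329, 365 and 391 CPM in fucoidan, a coefficient of variation of 7.38% within saline. The 2 highest libraries were fucoidan, and fucoidan replicate 1 lay inside the saline range. The log2 fold change was 0.17 (SE 0.107, 95% interval -0.07 to 0.40, adjusted p = 0.347).

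Klf3, a CtBP-dependent repressor with a role in B cell development (ENSMUSG00000029178, chromosome 5, 64960731 to 64990244, + strand), was 295, 399.8, 330.2, 259 and 339.9 CPM in saline and 339.9, 412 and 336 CPM in fucoidan. The groups overlapped across most of their range, with a log2 fold change of 0.16 (SE 0.144, adjusted p = 0.519). An antisense noncoding gene, Gm20033, overlaps it and fell (log2 fold change -0.96, adjusted p = 0.0459) on 18 to 88 counts, at most 1.76% of the Klf3 count. The strand setting of the counting is not given, so reads of the pair cannot be told apart. Another overlapping gene, C230096K16Rik on the same strand, had at most 4.85% of the Klf3 count.

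Klf7, best known from neurons (ENSMUSG00000025959, chromosome 1, 64068606 to 64161441, - strand), ran from 35.4 to 52.4 CPM in saline and from 30.7 to 51.2 CPM in fucoidan. Its log2 fold change was 0.04 (SE 0.174, adjusted p = 0.909), a sign that upper-quartile scaling turned to -0.0082. Klf12, a repressor first described on the gene for the factor AP-2 alpha (ENSMUSG00000072294, chromosome 14, 100108068 to 100522115, - strand), ran from 1.36 to 5.35 CPM in saline and from 2.86 to 4.01 CPM in fucoidan. Its log2 fold change of -0.12 had a 95% interval of -0.94 to 0.71 (adjusted p = 0.883).

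Across the 8 members, 5 log2 fold changes were negative and 3 positive, with a median of -0.20 against -0.04 for all genes tested. The number called was 0 of 8 by edgeR, by DESeq2 and by limma-voom, against 13.8%, 17.2% and 12.1% of all genes, and 0, 1 and 0 members had an unadjusted p under 0.05, which 28% of all genes had in edgeR. All 8 members overlapped between the groups, whereas 22.6% of all genes did not. In counts simulated for 14499 genes, the test found 43.1% of the 65 genes changed 2-fold and 19.4% of the 67 changed 1.5-fold. The simulation changed a smaller share of genes than passed in the data, at all levels of expression. These rates therefore need not hold for Klf2 or Klf6. A missed call at the fold changes of Klf2 or Klf6 does not show that the groups were equal.

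**Figure D2:**
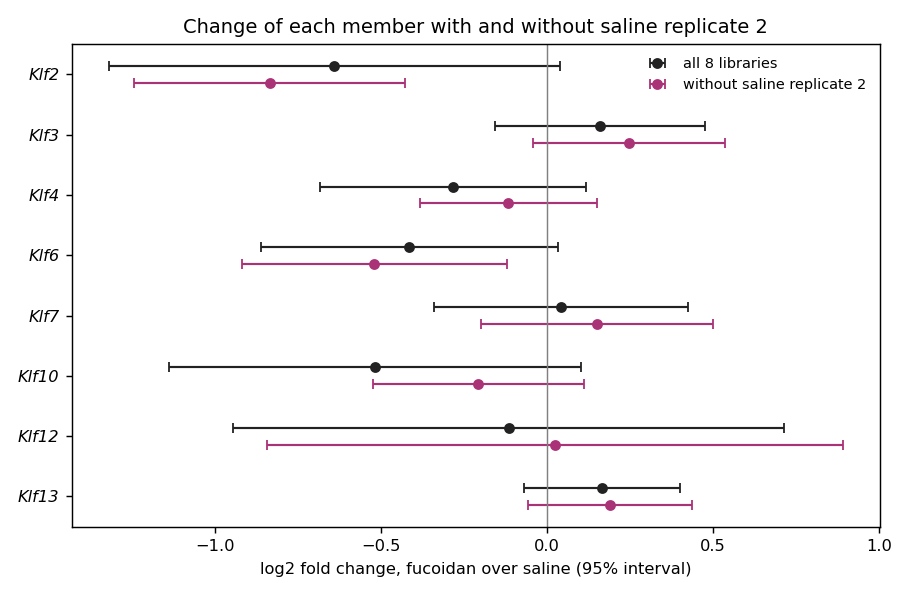
Log2 fold change of each member, fucoidan over saline, with its 95% interval, from all 8 libraries (black) and without saline replicate 2 (magenta). The intervals of Klf2 (-1.24 to -0.43) and Klf6 (-0.92 to -0.12) lie below 0 without that library, and only Klf2 passed the adjusted threshold. That library had the lowest saline values of both genes, and no member passed with any other library left out.

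Ratios within a library do not depend on how libraries are scaled. Klf2 made up 73.0%, 45.7%, 71.0%, 69.6% and 66.0% of the summed per-length level of the 8 members in saline and 64.6%, 52.6% and 59.2% in fucoidan. Saline replicate 2 lay below every other library, and the other 4 saline libraries lay above all 3 fucoidan libraries. Klf2 is the largest part of the sum, so its share is not independent of its level. The mean shares were 65.0% ± 11.1 (SD, n = 5) and 58.8% ± 6.03 (SD, n = 3). Klf6 held 15.0% ± 2.53 and 15.4% ± 1.33, a difference smaller than either SD. Klf13 held 7.07% ± 2.51 and 10.6% ± 2.40. The shares are bound to each other, so a lower Klf2 share raises those of the other members.

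**Figure D3:**
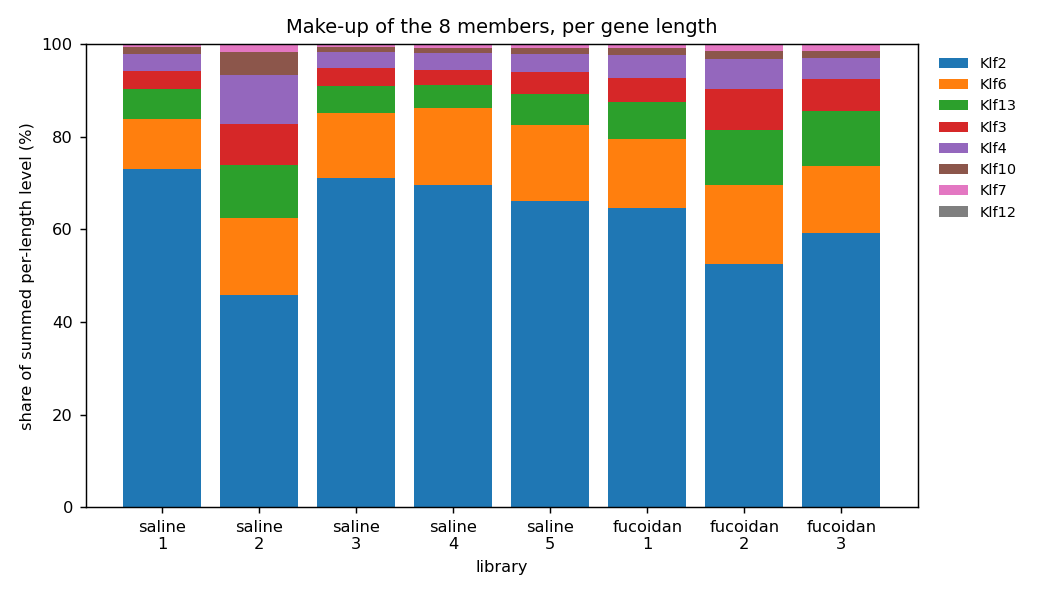
Share of each member in the summed per-length level of the 8 members, in percent, 1 bar per library. Klf2 takes 45.7% in saline replicate 2 and 66.0% to 73.0% in the other saline libraries, with 52.6% to 64.6% in fucoidan.

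Saline replicate 2 differed from the other 4 saline libraries in both directions. Klf2 was 0.369 times and Klf6 0.648 times their mean, both below their range. Klf10 was 2.21, Klf4 1.61, Klf7 1.39 and Klf3 1.31 times their mean, all above it, and Klf12 and Klf13 exceeded the highest of the 4 by little. By the same measure over all genes tested, saline replicate 1 was the highest saline library in 29.7% and the lowest in 25.5%. The marker sum of saline replicate 2 was the highest of the saline libraries for T cells (806 CPM) and nonclassical monocytes (1958 CPM). For B cells it was the lowest (4407 CPM). The part of these cells in the member values was not tested.

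**Figure D4:**
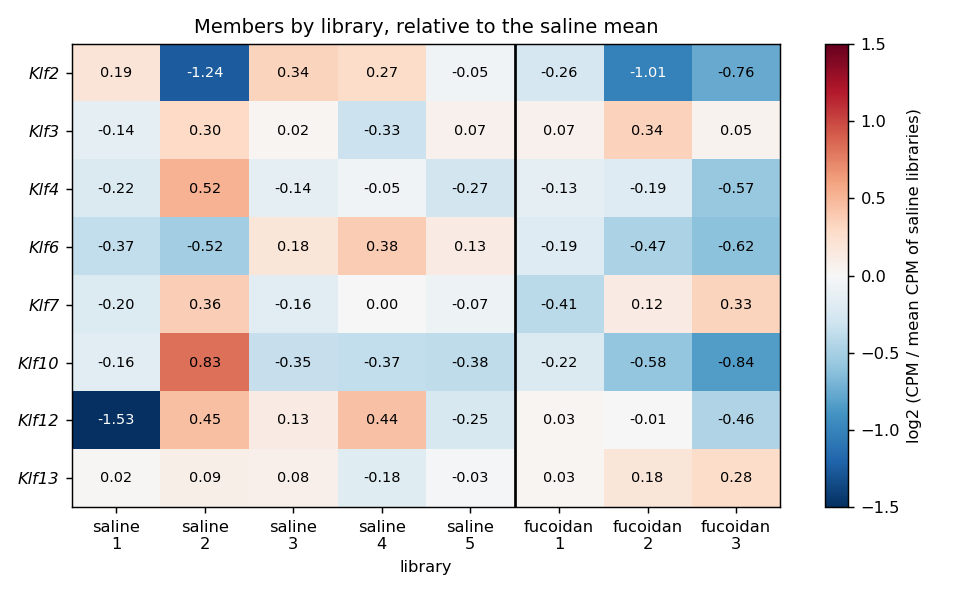
Log2 of each member's scaled CPM over its saline mean, per library (columns) and member (rows), with red above and blue below the mean; the line separates saline from fucoidan. In saline replicate 2, Klf2 stands at -1.24 and Klf10 at 0.83.

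After the group means were removed, the highest Pearson r among the 28 pairs of members was that of Klf4 and Klf10 (r 0.925, Spearman rho 0.881 over 8 libraries, r 0.689 without saline replicate 2), and the next that of Klf2 and Klf6 (r 0.713, rho 0.738, and r 0.397 without it). Without that library the highest was Klf6 and Klf12 (r 0.938), which had r 0.397 and rho 0.286 over all 8, so the order of the pairs rests on it. The most negative r was that of Klf2 and Klf7 (r -0.790, rho -0.810, and r -0.710 without saline replicate 2). Klf2 and Klf3 came next (r -0.784, and -0.555 without it). Without saline replicate 2 the most negative was Klf7 and Klf10 (r -0.954, against 0.225 over all 8). These are descriptions of 8 libraries that share depth and composition, and were not tested. Among 9617 other protein-coding genes, the most alike to each member were Ppme1 (r 0.974) and Nckipsd (0.971) for Klf2, Mtcp1 (0.989) and Rab3gap1 (0.984) for Klf6, Tgif1 (0.959) and Zdhhc14 (0.956) for Klf4, and Taf5 (0.974) and Itpkc (0.973) for Klf10. For Klf3 they were Zbtb11 (0.990) and Rassf2 (0.974), for Klf13 Clint1 (0.980) and Erich1 (0.966), for Klf7 Gsk3b (0.978) and Eif4g1 (0.977), and for Klf12 Ccnl1 and Gcfc2 (both 0.988). From 15 genes for Klf13 to 106 for Klf2 reached r of 0.9, so these few are the top of a broad set. Their r was not computed without saline replicate 2.

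Of 11 regulators upstream of Klf2 and Klf4, all tested, 1 rose and 1 fell, with a median log2 fold change of -0.06. Of all genes tested, 9.11% were called higher and 4.65% lower, and the median over all of them was -0.04. Mef2c, the MEF2 factor of B cells and myeloid cells, was at 301 ± 39.6 CPM in saline and fell to 176 ± 26.4 CPM in fucoidan (log2 fold change -0.77, adjusted p = 0.00545). Foxo4, a forkhead factor, rose from 66.3 ± 10.3 CPM to 138.6 ± 57.5 CPM (log2 fold change 1.06, adjusted p = 0.00801). Foxo4 was 102, 109 and 205 CPM in fucoidan replicates 1 to 3, and without replicate 3 its log2 fold change was 0.68. Mef2c and Foxo4 passed in all 17 alternatives, and 3 regulators fell without saline replicate 1 or with upper-quartile scaling, and 2 by DESeq2. Of the regulators that were not called, Map2k5 was -0.36 (adjusted p = 0.0650) and Foxp1 -0.37 (adjusted p = 0.0692). Foxo1, which activates Klf2 in T cells, was -0.28 (adjusted p = 0.0962), and Foxo3 was 0.32 (adjusted p = 0.162). Log2 fold changes were negative for 9 of the 11 regulators and positive for 2. B cell markers fell beside Mef2c and erythroid markers rose beside Foxo4, and their part in these values was not tested.

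Of 7 genes listed as needing KLF2 in lymphocytes or endothelium, 6 were tested; 2 fell and none rose, with a median of -0.25. In the lower direction 4.65% of all genes passed, and 11% lay lower without overlap. Ccr7, the lymph node homing receptor, was 492, 427, 638, 508 and 388 CPM in saline and 312, 265 and 232 CPM in fucoidan. Every fucoidan library lay below every saline library, and the log2 fold change was -0.86 (adjusted p = 0.00750). S1pr1, the receptor that lets lymphocytes leave lymph nodes, was 202 ± 29.2 CPM and 137 ± 25.0 CPM (log2 fold change -0.55, adjusted p = 0.0329), also without overlap. Ccr7 passed in all 17 alternatives and S1pr1 in 12. The count of 2 was 1 without fucoidan replicate 2 or 3, or without saline replicate 3, 4 or 5. In saline replicate 2, where Klf2 was 0.369 times the other saline libraries, S1pr1 (164 CPM) was the lowest of the saline libraries but above the fucoidan ones, and Ccr7 (427 CPM) lay within the range of the others. The same 2 genes are also among the 6 naive T cell markers, of which these 2 fell and Il7r rose, with summed levels of 1379 to 1744 CPM in saline and 1344 to 1456 CPM in fucoidan. Neither list is independent of the other.

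Of 7 genes listed as held down by KLF2 in T cells, directly or indirectly, 1 rose and none fell. Of all genes tested, 9.11% were called higher. The log2 fold change was positive for 5 of the 7 and negative for 2, with a median of 0.80 against -0.04 for all genes tested. Eomes, a T-box factor of effector and killer lymphocytes, rose from 18.4 ± 1.94 CPM to 35.1 ± 9.31 CPM (log2 fold change 0.93, adjusted p = 0.00452). The count was 2 without saline replicate 2 and 3 by DESeq2. Natural killer cells also express Eomes, and all 10 of their markers rose; the part of this in the result was not tested.

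**Figure D5:**
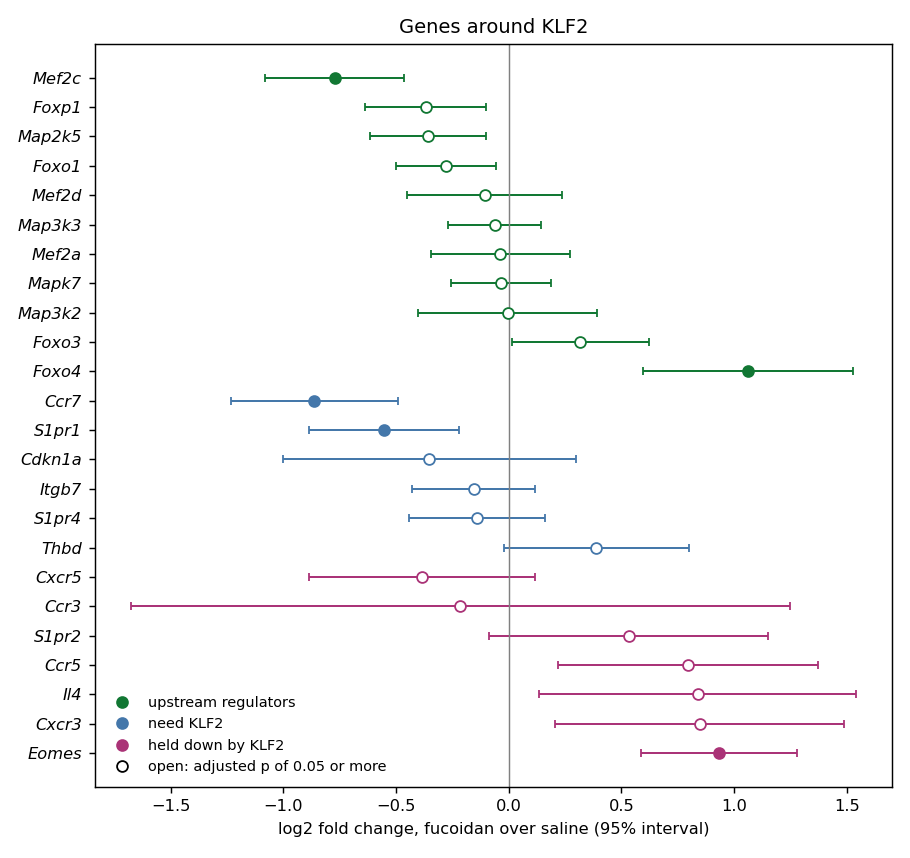
Log2 fold change with 95% interval of 24 genes around KLF2. Colours mark upstream regulators (green), genes that need KLF2 (blue) and genes listed as held down by it in T cells, directly or indirectly (magenta). Filled points have an adjusted p under 0.05. Filled points on the lower side are Mef2c (-0.77), Ccr7 (-0.86) and S1pr1 (-0.55), and on the higher side Foxo4 (1.06) and Eomes (0.93).

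Of 7 genes named as targets of other members, 6 were tested, with 1 risen, none fallen and a median of -0.24. Of all genes tested, 9.11% were called higher, and the median over all of them was -0.04. Ccl5, the chemokine gene under KLF13 in human T cells, rose from 140 ± 15.0 CPM to 249 ± 36.1 CPM (log2 fold change 0.83, adjusted p = 0.00396). Natural killer cells also make Ccl5, and their markers rose beside it. With the replicate numbers as a block, with upper-quartile scaling, with no filter and by DESeq2, 1 of these genes fell as well, and 2 rose without saline replicate 1.

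Partners of the members are given with their log2 fold changes. None of 11 TGF-beta pathway genes around Klf10 passed in edgeR (3 had an unadjusted p under 0.05; DESeq2 called 1 and limma-voom 0), and the smallest p-values belonged to Smad3 (0.35, adjusted p = 0.0767) and the SMAD corepressor Tgif1 (-1.08, adjusted p = 0.112). None of 9 CtBP complex genes, partners of KLF3 and KLF12, passed (2 unadjusted; 0 by DESeq2 and limma-voom), with Fhl3 at 0.58 (adjusted p = 0.130) and Zeb2 at 0.34 (adjusted p = 0.143). None of 9 SIN3 complex genes, partners of KLF10 and KLF13, passed in edgeR (2 unadjusted; DESeq2 called 2, limma-voom 0), with the scaffold Sin3a at -0.29 (adjusted p = 0.0642) and its paralog Sin3b at 0.27 (adjusted p = 0.0795). The 4 acetyltransferase coactivators had no call and no unadjusted p under 0.05 (0 by DESeq2 and limma-voom), with Kat2a at 0.12 and Kat2b at 0.11. Of 10 ubiquitin ligases that act on KLF proteins, none passed (1 unadjusted; 0 by DESeq2 and limma-voom), with Btrc at -0.32 and Fbxw7 at -0.29. Without saline replicate 2, 1 gene rose in each of the TGF-beta, CtBP and ligase lists, Smad3 (adjusted p = 0.0399) and Zeb2 (adjusted p = 0.0403) being those of the first 2. Some values that did not pass moved by more than 1.5 times with 1 library left out: Tgif1 was -0.56 and Fbxw7 -0.19 without saline replicate 2, Fhl3 was 0.18 without fucoidan replicate 3, and Kat2a and Kat2b ran from 0.057 to 0.18 and from 0.066 to 0.21.

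Among 18 other KLF and SP genes, 9 were tested and none passed (0 unadjusted, 0 by DESeq2 and by limma-voom), with a median of -0.13. The smallest p-values were those of Klf9, a glucocorticoid-responsive member (0.43, adjusted p = 0.206), and Klf16 (-0.53, adjusted p = 0.241, and -0.21 without saline replicate 2). Klf1, the erythroid member, had only 1 to 10 counts per library and was not tested, although 13 erythroid markers rose. Klf14 had 0 counts in every library.

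Of 16 immediate early genes, whose transcripts respond within minutes to activation or handling, 7 fell and none rose, where 4.65% of all genes tested passed in the lower direction. Their median log2 fold change was -0.60. Junb, an AP-1 subunit, was -0.91 (adjusted p = 0.0146), Fos, its partner, -0.75 (adjusted p = 0.00834), and Ier5, Jund and Btg2 lay between -0.62 and -0.57. The summed level was 6036 to 8676 CPM in saline and 3691 to 5781 CPM in fucoidan. The count of 7 was 1 without fucoidan replicate 2, 2 without fucoidan replicate 3 and 3 without saline replicate 4. It was 8 without fucoidan replicate 1 or saline replicate 1, and 9 by DESeq2 or with upper-quartile scaling. The part of handling in the values of Klf4, Klf6 and Klf10, which are themselves rapidly induced genes, was not tested.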

How the data were processed

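The authors deposited raw read counts per gene (whole numbers) with gene names, coordinates and lengths. Per the submitters' processing notes, reads were trimmed with cutadapt 4.0 and Trimmomatic 0.39 and aligned with HISAT2 2.2.1 to GRCm39; no source used here names the counting program, annotation release or strandedness. Per the labels' protocols, libraries were poly(A)-selected and read as 2 × 150 bases, with 1 batch date.

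Counts were filtered with filterByExpr, scaled by TMM and tested across all genes with edgeR 4.0.16 (robust quasi-likelihood, Benjamini-Hochberg adjusted p under 0.05; R 4.3.3). CPM are TMM-scaled. SEs are the log2 fold change over the square root of F, and 95% intervals are approximate. Alternatives were DESeq2 1.42.0, limma-voom (3.58.1), other scalings and filters, a replicate block and leaving out each library. The test was checked on simulated counts.

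The members and gene lists were chosen with earlier results of these data known, and 1 listed gene is not reported here. Named genes were all members, up to 5 called genes of a list (or the 2 of smallest p), Klf1, and the genes that overlap Klf3. Other genes overlap Klf7, Klf12 and Klf13. The most read of these was Gm27252, on the strand opposite Klf13, with 12 to 42 counts, at most 0.853% of the Klf13 count (log2 fold change 0.34, adjusted p = 0.602). The 2 genes most alike to each member (mean of at least 5 CPM) were also named. Foxo1, Foxo3, Foxp1, Map2k5 and Klf14 were added after their values were seen. So were the monocyte and macrophage markers Cx3cr1, Nr4a1, C1qa, C1qb, C1qc, Cd163 and Adgre1. Saline and fucoidan libraries share replicate numbers 1 to 3, and the titles name no pairing. After group means were removed, same-numbered libraries correlated at 0.177, 0.233 and 0.144, and other pairs at -0.261 to 0.144. Saline replicate 5 with fucoidan replicate 2 (0.1438) exceeded the same-numbered pair 3 (0.1435), so these values do not settle whether the numbers pair libraries. The main fit left the numbers out, and the replicate block was an alternative.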

Additional observations from a re-analysis of the deposited data

Results flagged for a closer look

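Among 32 named genes checked in the 5 saline libraries, 5 had a library whose gap to its nearest neighbour exceeded the critical share of 0.71 of the group's range, and in all 5 it was saline replicate 2, the highest. Chance flags about 5% of such groups, but these genes share their libraries and are not independent. Over all 14723 genes tested, the same measure marked 7.99%, and saline replicate 2 as the highest library in 1.88%. Klf10 was 81.1 CPM there, a gap of 0.872 of the range, and Klf4 was 129 CPM, a gap of 0.771. Klf16, another family member, was 94.1 CPM (0.864 of the range). The SMAD corepressor Tgif1, the gene most alike to Klf4 over all libraries (saline replicate 2 included), was 247 CPM (0.873). The ubiquitin ligase gene Fbxw7 was 38.1 CPM (0.750).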

How the results depend on the processing

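Of 136 results of members under the 17 alternatives, 127 kept their sign and their side of the threshold, 8 turned sign and 1 passed the test. Leaving out each library in turn moved the number of members called from 0 to 1, the genes called from 928 to 2224, those higher from 746 to 1368 and those lower from 182 to 856. The single member called was Klf2 without saline replicate 2 (-0.84; range -0.88 to -0.48). Klf7 and Klf12 turned sign around values close to 0: Klf7 was -0.0082 with upper-quartile scaling and ran from -0.11 to 0.23 over left-out libraries, and Klf12 was 0.051 by limma-voom, 0.12 with the replicate block and ran from -0.33 to 0.024. The cause was not tested. The replicate block lowered the number of lower genes to 439, gave -0.44 for Klf2 (adjusted p = 0.318) and changed no call of a member. In saline, per-length levels ranked Klf13 at 3, Klf4 at 4 and Klf3 at 5, whereas CPM ranked Klf3 at 3, Klf13 at 4 and Klf4 at 5. Klf12 rested on 24 to 95 counts per library, the fewest of the 8 members.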

Other observations

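Other family genes and some immediate early genes were also high in saline replicate 2. Over all genes tested, that library was the highest saline library in 24.4% and the lowest in 24.7%. Of the 9 other KLF and SP genes tested, 7 lay above the range of the other 4 saline libraries and none below, with Klf11, a TGF-beta-inducible relative of Klf10, at 75.2 CPM or 2.93 times their mean. Of 16 immediate early genes, 7 lay above that range, 9 within it and none below. Fosb, an AP-1 subunit, was 233 CPM there against 33.8 to 71.5 CPM, Egr3 41.0 CPM against 8.31 to 18.5 CPM, and Junb 3108 CPM against 1777 to 2349 CPM, while Fos, at 511 CPM, lay within the range of 494 to 546 CPM. These genes were chosen after their values were seen, and the values are given without a test.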
